A study of Mus musculus with 15 samples.

Results

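Alpha-defensins and the other secretory genes of Paneth cells were followed through 15 libraries of whole mouse ileum. The members were every gene row named Defa with a number, pseudogene names left out, which gave 28 alpha-defensin genes, and the 6 genes Lyz1, Mmp7, Ang4, Itln1, Mptx1 and Mptx2. These are 34 of the 25329 genes in the table, and they were chosen by name, not by their values. The study asked what the kinase function of RIPK1 contributes to ileitis when the intestinal epithelium lacks TAK1. It compared 3 groups of 5 mice: Tak1f/f controls (WT), TAK1 IEC-KO mice (HO), in which TAK1 was deleted in intestinal epithelial cells, and TAK1 IEC-KO mice that were also Ripk1 D138N/D138N (DHO), an allele whose RIPK1 protein has no kinase activity. Per the labels, mice received 3 daily intraperitoneal injections of 80 mg/kg tamoxifen in corn oil and ethanol to delete Tak1, and the ileum was taken 3 days after induction. The labels describe that treatment for every sample, controls included, and give no strain, sex, age, litter or Cre driver, so neither the strain of each mouse nor its relation to the others is known here.

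Paneth cells sit at the base of the small intestinal crypts, next to the stem cells, and release granules of antimicrobial proteins into the crypt lumen. Alpha-defensins, called cryptdins in the mouse, are short cationic peptides with disulfide bonds that damage bacterial membranes. In mice they are made as precursors and cut to their active form by the protease matrilysin, the product of Mmp7. The mouse genes form a cluster of near-identical copies whose number and sequence differ between inbred strains. Lysozyme, an enzyme that cleaves the bacterial cell wall, is stored in the same granules and is the usual marker of the cell type.

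Values are FPKM, which are read counts adjusted for gene length and sequencing depth, and depth was even, at 38724618 to 40589889 reads per library. Some libraries differed in ways the genotype labels do not give. HO 1, DHO 3 and DHO 4 held the proximal intestinal transcription factor gene Gata4 at 27.3, 19.0 and 18.0 FPKM, against at most 0.529 FPKM in the other 12 libraries. HO 1 also held the ileal bile acid binding protein gene Fabp6 at 0.0491 FPKM, against 1356 FPKM or more elsewhere. The summed level of 6 B cell follicle genes was 16.3, 36.9 and 20.5 FPKM in HO 2, HO 4 and DHO 1, and at most 1.14 FPKM elsewhere. Summed smooth muscle markers spanned 145 to 1040 FPKM across WT libraries, 362 to 1630 across HO and 385 to 1200 across DHO. Map3k7, which encodes TAK1, spanned 9.39 to 11.2 FPKM across WT libraries, 6.88 to 9.42 across HO libraries and 8.31 to 10.1 across DHO libraries. Its log2 change was -0.24 in HO against WT (SE 0.09, adjusted p = 0.0419) and -0.15 in DHO against WT (SE 0.09, adjusted p = 0.962), which was not called. The median change over all genes tested in HO against WT was -0.25, so the fall of Map3k7 was no larger than that shift. Reads from outside any deleted exons and from other cell types would count toward Map3k7, and their part in its level was not tested.

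Paneth cell transcripts were abundant in control ileum, and their level spanned several-fold within each group. Lyz1 (chromosome 10, 117287795 to 117292868 on GRCm38.p6) stood at 1605, 2392, 3863, 4075 and 837 FPKM in WT 1 to WT 5. In HO 1 to HO 5 the lysozyme transcript was at 216, 287, 1218, 444 and 341 FPKM, and in DHO 1 to DHO 5 at 695, 1253, 1566, 2002 and 2043 FPKM. Only HO 3 among the HO libraries lay inside the WT range, and it lay above WT 5.

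The protease gene Mmp7 (chromosome 9, 7692090 to 7699585) was expressed at a lower level. WT libraries held it at 81.7, 96.4, 142, 158 and 41.3 FPKM, HO libraries at 13.3, 24.5, 93.5, 33.8 and 21.04, and DHO libraries at 33.0, 59.9, 56.8, 69.0 and 117 FPKM. HO 3 stood again within the WT range, while the other 4 HO libraries lay below every WT library.

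Ang4, a ribonuclease with antimicrobial activity (chromosome 14, 51763892 to 51773590), was at 91.0, 130.5, 358, 445 and 41.2 FPKM in WT. It was at 9.65, 5.71, 58.5, 12.3 and 13.4 FPKM in HO and at 31.4, 80.1, 72.4, 120.5 and 202 FPKM in DHO. The intelectin gene Itln1 (chromosome 1, 171518123 to 171535325), whose lectin binds bacterial sugars, was at 424, 593, 932, 1205 and 230.3 FPKM in WT, at 103, 80.4, 344, 136 and 132 FPKM in HO and at 238, 411, 414, 574 and 775 FPKM in DHO. For both genes HO 3 was the single HO library that overlapped WT, and the 5 DHO libraries lay above the other 4 HO libraries. For Ang4, DHO 1 lay below every WT library.

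The mucosal pentraxin gene Mptx2 (chromosome 1, 173274461 to 173277756) encodes a secreted pattern recognition protein of mouse Paneth cells. Its values were 121, 217, 478, 644 and 66.0 FPKM in WT, 15.0, 4.66, 70.6, 19.7 and 16.2 FPKM in HO, and 17.5, 85.2, 95.0, 149 and 224 FPKM in DHO. DHO 1 lay among the HO libraries for this gene, and HO 3 lay above WT 5. Its neighbour in sequence, Mptx1, was at 0.378 to 1.30 FPKM over the 15 libraries, below the level needed for testing.

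**Figure D1:**
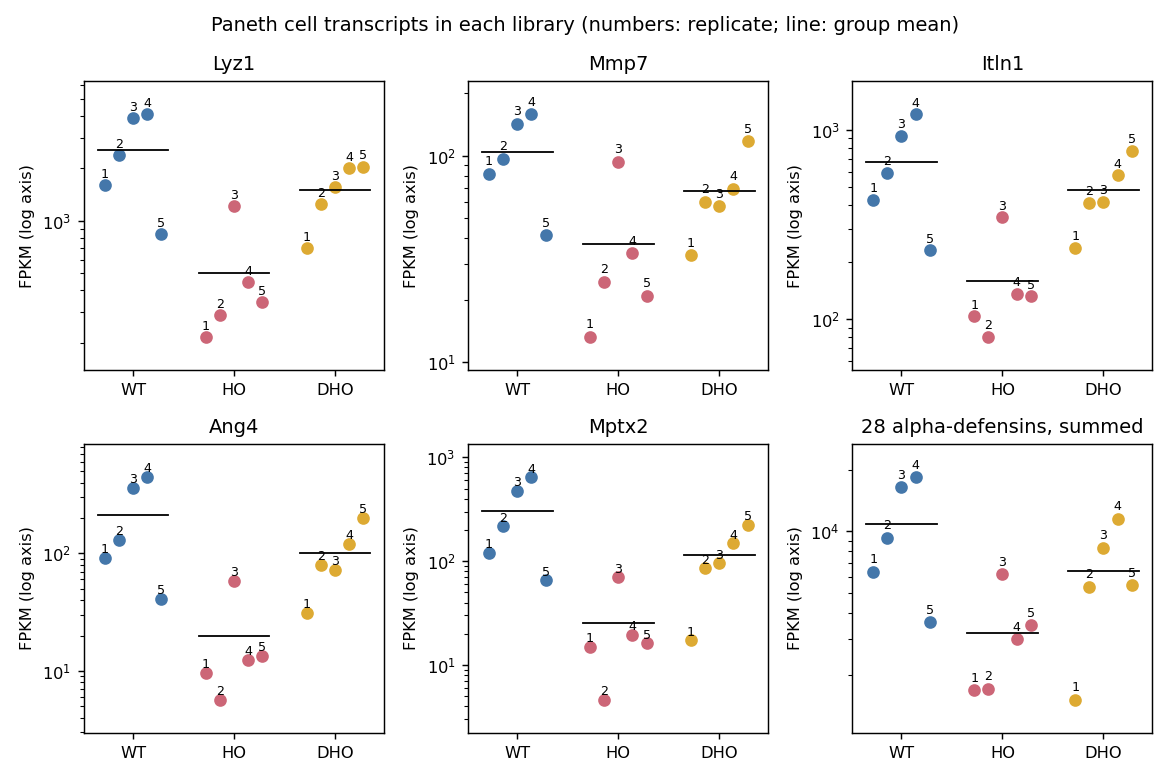
FPKM on a log axis for Lyz1, Mmp7, Itln1, Ang4, Mptx2 and the sum of the 28 alpha-defensin genes, with 1 point per library, the replicate number above it and a line at the mean of the 5 libraries. HO 3 stands above the other HO libraries in each panel, and WT 5 is the lowest WT library in each.

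The 28 alpha-defensin genes lie between 21025545 (the start of Defa21) and 21735471 (the end of Defa24) on chromosome 8. Defa24 was the most abundant in every WT library. It stood at 2709, 4011, 7364, 8007 and 1551 FPKM in WT, at 798, 609, 2764, 1029 and 1041 FPKM in HO and at 959, 2457, 3196, 4405 and 3610 FPKM in DHO. Added over the 28 genes, alpha-defensin transcripts came to 6371, 9305, 16422, 18385 and 3608 FPKM in WT. The sum was 1686, 1709, 6188, 2981 and 3489 FPKM in HO and 1519, 5390, 8340, 11519 and 5465 FPKM in DHO. The WT median was 9305 FPKM, the HO median 2981 and the DHO median 5465, and each pair of groups overlapped.

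Other abundant copies showed the same 3 groups with different overlap. Defa17 was at 285, 215, 285, 487 and 138 FPKM in WT libraries, at 34.4, 25.9, 143, 48.3 and 44.1 FPKM in HO and at 88.6, 137, 152, 191 and 264 FPKM in DHO. Defa30 was at 871, 1214, 2115, 2472 and 467 FPKM in WT libraries, at 337, 302, 870.0, 508 and 478 FPKM in HO and at 108, 830.3, 1348, 1899.8 and 382 FPKM in DHO. Only HO 3 reached the WT range for Defa17, whereas HO 3, HO 4 and HO 5 did for Defa30.

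Defa5 stood at 49.5, 90.3, 225, 209 and 35.1 FPKM in WT libraries, 12.6, 8.34, 59.4, 21.9 and 24.9 FPKM in HO and 15.3, 41.5, 51.1, 74.6 and 107 FPKM in DHO. Defa29 and Defa39 carry RefSeq synonyms of cryptdin-related sequences. Defa29 stood at 110.3, 179, 343, 349.6 and 59.4 FPKM in WT libraries, 17.5, 16.8, 60.3, 38.1 and 49.3 FPKM in HO and 10.8, 74.2, 256, 355 and 83.3 FPKM in DHO. Defa39 stood at 109.6, 171, 389, 359 and 66.6 FPKM in WT libraries, 119, 19.2, 98.3, 44.9 and 61.2 FPKM in HO and 16.9, 89.7, 252, 336 and 103 FPKM in DHO. HO 3 was the single HO library within the WT range for Defa5 and Defa29, and HO 1 joined it for Defa39.

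Copies that resemble each other can exchange reads, and how reads with several matches were counted is not given in the sources used here. In mouse transcript models, every 100-base stretch of Defa2, Defa31, Defa33, Defa37 and Defa42 also occurs in another gene of the cluster. For Defa24 and Defa39 that share is 0%, for Defa30 it is 0.3%, for Defa27 10.8%, for Defa38 17.9% and for Defa35 23.4%. It is 90.6% for Defa17, shared with Defa3, and 88.1% for Defa5, so their single values are uncertain. Defa21 and Defa22 share 40.4% and 40.3% of their stretches, with each other. For stretches of 50 bases the shares are 28.1% for Defa24, 33.5% for Defa39, 43.4% for Defa29 and 52.4% for Defa30, and the read length is not given in the sources used here. Among the abundant genes, Defa24 and Defa39 share the least at both lengths, and the levels of the near-identical copies are uncertain one by one.

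The start of these genes shows how alike the copies are. The windows below hold 250 bases before and 50 bases after the annotated start, from RefSeq on GRCm38.p6, and are shown for 3 genes whose levels part company between libraries in the values given further on. Capitals mark TATAAA, a core promoter element, and ATCAAAG, a form of the motif bound by TCF/LEF factors of the Wnt pathway, which is active in Paneth cells. Both were searched on both strands.
Defa21, chr8:21025295-21025594, plus strand: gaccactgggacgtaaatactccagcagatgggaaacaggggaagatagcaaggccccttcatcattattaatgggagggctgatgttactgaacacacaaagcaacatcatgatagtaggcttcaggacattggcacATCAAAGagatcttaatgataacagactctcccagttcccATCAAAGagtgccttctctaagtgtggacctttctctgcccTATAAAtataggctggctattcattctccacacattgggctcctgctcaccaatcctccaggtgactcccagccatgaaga
Defa35, chr8:21064788-21065087, plus strand: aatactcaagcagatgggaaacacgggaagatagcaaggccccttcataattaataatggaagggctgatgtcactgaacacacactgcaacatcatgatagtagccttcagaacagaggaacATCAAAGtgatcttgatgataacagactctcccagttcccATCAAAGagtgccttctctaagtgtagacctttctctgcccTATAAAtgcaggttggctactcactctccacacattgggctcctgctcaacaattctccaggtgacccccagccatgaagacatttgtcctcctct
Defa38, chr8:21096001-21096300, minus strand: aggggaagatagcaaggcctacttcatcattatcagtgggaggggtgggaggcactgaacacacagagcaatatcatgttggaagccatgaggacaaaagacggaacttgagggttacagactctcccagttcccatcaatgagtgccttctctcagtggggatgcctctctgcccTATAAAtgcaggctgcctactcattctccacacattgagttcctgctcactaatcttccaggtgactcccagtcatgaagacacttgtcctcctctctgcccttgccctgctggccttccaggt
The Defa22 window is 100% identical to that of Defa21, the Defa20 window 97.7%, the Defa35 window 87.0% and the Defa38 window 73.0%, as matched bases of a global alignment out of 300. Among the 16 alpha-defensin genes with a window, 13 held ATCAAAG and 9 of those held it in 2 places, against 3.7% of 32851 RefSeq promoters with a match. TATAAA was in 15 of the 16, against 13.6% of all promoters. The Defa38 window holds TATAAA and has no ATCAAAG. Pairs of windows were 64.3% to 100% identical, with a median of 77.6%, so the genes shown are not independent examples.

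TAK1 deletion in the epithelium was accompanied by lower Paneth cell transcripts. In HO against WT, 21 of the 32 members tested fell and none rose, while 42.9% of all 11332 genes tested were called lower and 12.4% higher. The 5 testable genes outside the defensin cluster fell, and 16 of 27 alpha-defensins tested did. The median log2 change was -1.96 over the 32 members and -0.25 over all genes tested, and every one of the 32 changes was below 0. Changes and p-values come from limma on log2(FPKM + 1), and calls required a p-value below 0.05 after Benjamini-Hochberg adjustment across the 11332 genes. In whole tissue, fewer Paneth cells and less of these transcripts per cell cannot be told apart. The labels do not say whether the 5 mice of a group were independent litters, so p-values measure the spread between these samples.

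Mptx2 and Ang4 changed most among the genes outside the cluster. Mptx2 had a log2 change of -3.57 (SE 0.76, adjusted p = 0.00115) and Ang4 one of -3.32 (SE 0.68, adjusted p = 0.000877). The log2 change of Lyz1 was -2.42 (SE 0.49, adjusted p = 0.000808), and its HO mean was 19.6% of the WT mean. Itln1 changed by -2.06 (SE 0.45, adjusted p = 0.00152) and the processing protease Mmp7 by -1.64 (SE 0.47, adjusted p = 0.00805). HO and WT overlapped for each of these 5 genes through HO 3. All 5 calls held under all 27 alternative settings.

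Among the abundant alpha-defensins every change was below 0, but some were called and others were not. Defa24 fell by 1.89 (SE 0.51, adjusted p = 0.00576), Defa17 by 2.39 (SE 0.42, adjusted p = 0.000272), Defa5 by 2.15 (SE 0.61, adjusted p = 0.00797) and Defa29 by 2.37 (SE 0.77, adjusted p = 0.0167). Defa35 had a change of -4.98 (SE 1.08, adjusted p = 0.00142) and Defa27 one of -5.87 (SE 1.66, adjusted p = 0.00792). The latter was listed at 0 in 4 of the 5 HO libraries, so its fitted change depends on the 1 FPKM added before the log. It lost its call without HO 2, HO 4 and DHO 1 (-4.94, adjusted p = 0.0628). Defa30 (-1.38, SE 0.65, adjusted p = 0.0838), Defa39 (-1.61, SE 0.72, adjusted p = 0.0708), Defa21 (-1.56, SE 1.85, adjusted p = 0.486), Defa22 (-1.59, SE 1.36, adjusted p = 0.332) and Defa38 (-1.31, SE 1.41, adjusted p = 0.439) were not called. Without WT 5, Defa30 (-1.72, adjusted p = 0.0417) and Defa39 (-1.96, adjusted p = 0.0398) were, and without DHO 1, which enters the shared spread, both were as well (adjusted p = 0.027 and 0.0281). When only HO and WT were fitted, so that no DHO library entered the spread, 26 members were called, all lower. Defa30 (adjusted p = 0.0226), Defa39 (0.0347) and Defa38 (0.0236) were then among them, and Defa21 (0.082) and Defa22 (0.0844) were not.

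The other 16 alpha-defensins tested had means below 100 FPKM in every group. Of these, 10 were called lower, and their changes ran from -2.66 (Defa23) to -1.16 (Defa36). Defa28 and Defa43 were the members whose HO libraries all lay below every WT library, which is 2 of 32 members beside 36.0% of all genes tested. Defa25, at 1.38 FPKM or below in WT and listed at 0 in all HO libraries, was not tested. Of the 21 calls, 15 held under all 27 alternatives. Defa42 lost its call under 16 of them, Defa36 under 12, Defa34 under 10, Defa43 under 8, and Defa27 and Defa37 under 1 each.

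Markers of other cells moved too. Summed smooth muscle markers had a median of 567 FPKM in WT and 1240 in HO, and 4 of 6 rose. The summed epithelial markers ran from 9680 to 10900 FPKM in WT and from 6920 to 9160 in HO, with 2 of 7 lower and 1 higher, and summed goblet cell markers from 9680 to 11500 and from 10400 to 15300 FPKM. Summed neutrophil markers ran from 0.364 to 0.941 FPKM in WT and from 2.25 to 28.6 in HO, without overlap, and both of the 2 tested, S100a8 (1.65) and Ly6g (2.89), rose. Their part in the Paneth cell result was not tested. Scaling by median-of-ratios factors moved the median of all genes from -0.25 to -0.03 and the lower share of all calls from 77.6% to 53.4%, and quantile normalization moved them to -0.05 and 55.7%. Under these scalings 17 and 18 members were called, all lower.

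**Figure D2:**
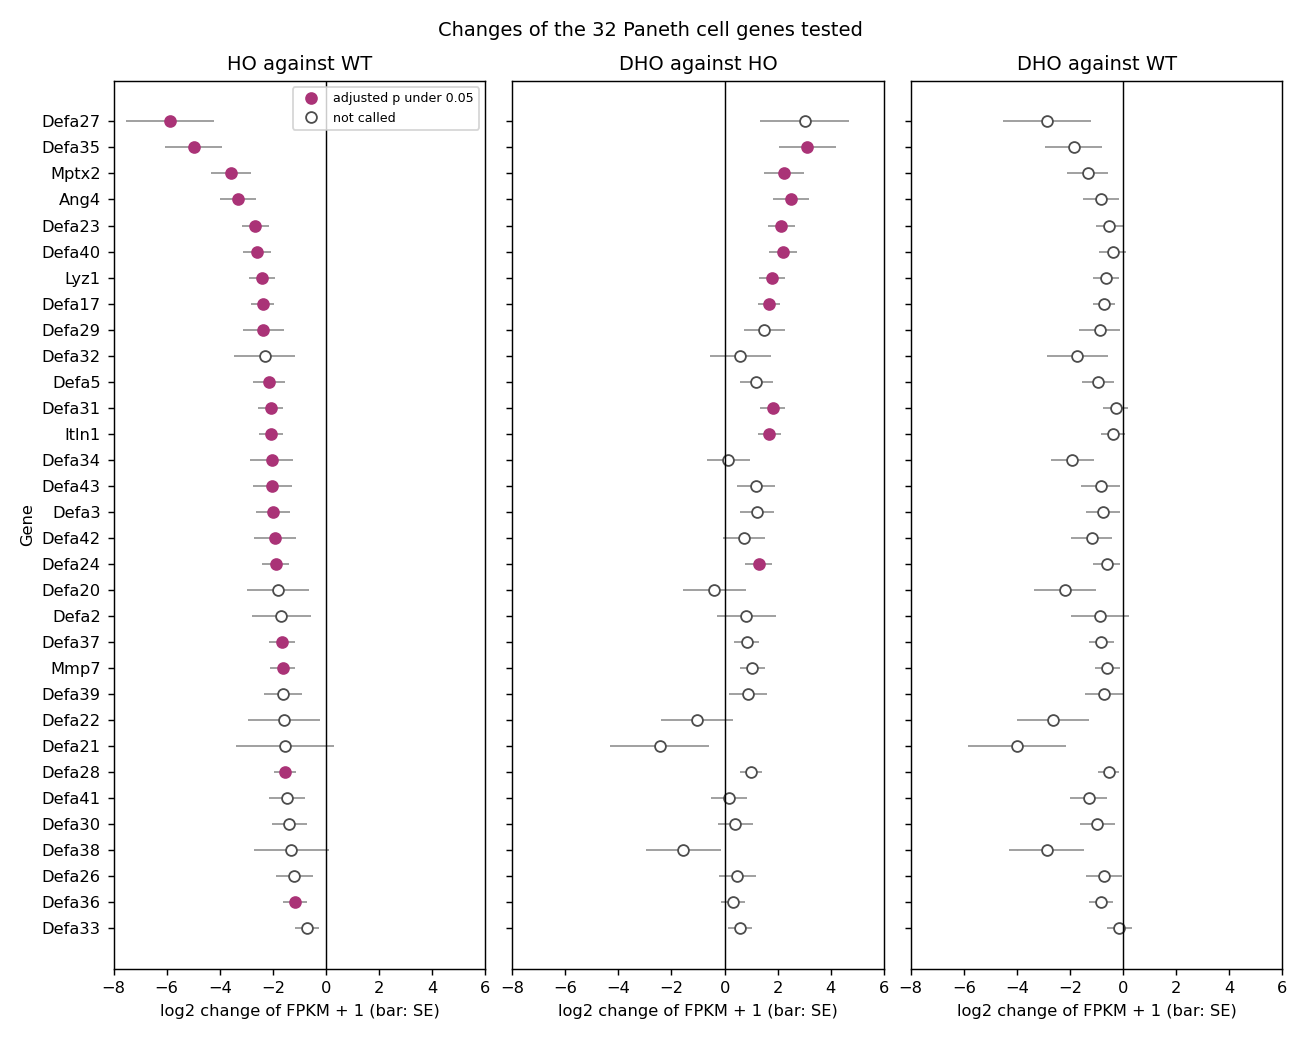
Log2 change of FPKM + 1 with its standard error for the 32 members tested, in HO against WT, DHO against HO and DHO against WT, ordered by the first. Filled points passed an adjusted p of 0.05: 21 members were lower in HO, 10 were higher in DHO than in HO, and none was called between DHO and WT.

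With kinase-dead RIPK1 on the TAK1-deleted background, some of the Paneth cell transcripts were higher than in HO. In DHO against HO, 10 of 32 members rose and none fell, while 42.8% of all genes tested were called higher and 13.4% lower. Lyz1, Ang4, Itln1 and Mptx2 rose, as did 6 of 27 alpha-defensins tested. The share called higher was below that of all genes for the members and for the alpha-defensins alone. This comparison uses the same HO libraries as the one above. The median change was 1.02 over the members and 0.25 over all genes, and 28 of 32 changes were above 0. The higher share of all calls was 76.2%, and became 55.3% and 56.0% under the same 2 scalings as above, with which 9 and 10 members were called. Summed smooth muscle markers had a median of 652 FPKM in DHO beside 1240 in HO, with none of 6 called, and summed epithelial markers ran from 8370 to 10100 FPKM in DHO, with 4 of 7 higher and 1 lower. Summed neutrophil markers ran from 0.0877 to 1.4 FPKM in DHO, below every HO library, and S100a8 (-1.66) and Ly6g (-2.89) fell. Their part in the result was not tested.

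Ang4 rose by a log2 change of 2.50 (SE 0.68, adjusted p = 0.00572), Mptx2 by 2.23 (SE 0.76, adjusted p = 0.0205), Lyz1 by 1.78 (SE 0.49, adjusted p = 0.00606) and Itln1 by 1.69 (SE 0.45, adjusted p = 0.00539). Mmp7 had a change of 1.05 (SE 0.47, adjusted p = 0.0672), with a 95% interval from 0.05 to 2.04, and was not called. It gained a call without HO 3 (1.45, adjusted p = 0.00673) or DHO 1 (1.27, adjusted p = 0.0383). Without the 3 libraries with proximal transcripts, HO 1, DHO 3 and DHO 4, the changes of Lyz1 (1.33, adjusted p = 0.0748) and Mptx2 (1.87, adjusted p = 0.126) lost their calls, while Ang4 (2.28, adjusted p = 0.0454) and Itln1 (1.5, adjusted p = 0.0471) kept theirs. Mptx2 also lost its call without HO 2 (1.80, adjusted p = 0.0622) or DHO 5 (1.89, adjusted p = 0.0565).

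Of the abundant defensins, Defa17 rose by 1.66 (SE 0.42, adjusted p = 0.00351), Defa35 by 3.12 (SE 1.08, adjusted p = 0.0228) and Defa24 by 1.28 (SE 0.51, adjusted p = 0.043). The call on Defa24 was lost under 13 of 27 alternatives, among them leaving out WT 2, any of HO 1, HO 2, HO 4 and HO 5, or any of DHO 2 to DHO 5. That on Defa35 was lost under 7, among them leaving out HO 1, HO 2, HO 4 or DHO 5. Defa23, Defa31 and Defa40, which are less abundant, rose by 2.14, 1.81 and 2.21 and kept their calls under all 27 alternatives. Defa23 shares 89.1% of its 100-base stretches with Defa31, and Defa31 100% with Defa23, so the calls on this pair may not be separate results. Defa5 (1.20, SE 0.61, adjusted p = 0.104), Defa29 (1.49, SE 0.77, adjusted p = 0.109), Defa27 (3.01, SE 1.66, adjusted p = 0.133), Defa30 (0.41, SE 0.65, adjusted p = 0.615) and Defa39 (0.88, SE 0.72, adjusted p = 0.316) were not called. Calls were gained without DHO 1 by Defa5 (1.60), Defa29 (2.23) and Defa39 (1.52), without HO 3 by Defa5 (1.58) and Defa27 (4.40), and without DHO 3 or DHO 4 by Defa27 (4.08 each).

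Defa20, Defa21, Defa22 and Defa38 had changes below 0, at -0.38, -2.45, -1.04 and -1.56, and were not called, with adjusted p-values of 0.799, 0.274, 0.533 and 0.361. Their SEs were 1.17, 1.85, 1.36 and 1.41, because DHO 1 and DHO 5 held almost none of these transcripts. Without those 2 libraries, a setting chosen after their values were seen, the changes were 1.83, 1.44, 1.56 and 1.37 and 20 members were called higher. Without DHO 1 alone the count was 16. Without HO 1, DHO 3 and DHO 4 it was 8 higher and 4 lower, the lower ones being Defa20, Defa21, Defa22 and Defa38.

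Between DHO and WT, 0 of 32 members were called, and 27 genes, 0.238% of those tested, were called in all. An unadjusted p under 0.05 was reached by 2 members, Defa21 and Defa34, beside 6.34% of all genes, and limma-voom on recovered reads called none either. Every change was below 0, from -4.01 (Defa21) to -0.14 (Defa33), with a median of -0.84 against 0.00 over all genes. The intervals are wide. Lyz1 changed by -0.64, with a 95% interval from -1.67 to 0.40, Mmp7 by -0.59 (-1.59 to 0.40), Itln1 by -0.37 (-1.33 to 0.59), Ang4 by -0.82 (-2.26 to 0.62), Mptx2 by -1.34 (-2.95 to 0.26) and Defa24 by -0.61 (-1.69 to 0.47). A DHO level below that of WT by a doubling or more thus lies within the interval for these 6 genes. Without DHO 1 and DHO 5, 11 of the 32 changes turned positive.

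The make-up of the alpha-defensin transcripts was a second way in which libraries differed. In the 5 WT libraries the largest contributors held nearly constant shares although the sum spanned 3608 to 18385 FPKM. Defa24 gave 42.5% to 44.8% of the summed FPKM there, Defa30 12.9% to 13.7%, Defa22 10.5% to 11.6%, Defa21 9.5% to 11.6% and Defa38 4.68% to 6.17%. Smaller contributors varied more among WT libraries, with Defa17 at 1.73% to 4.48%, Defa35 at 2.36% to 4.08% and Defa32 at 0.0574% to 0.776%. HO 3 and DHO 2 resembled WT in the largest shares, with Defa24 at 44.7% and 45.6%. The other 8 libraries departed from them, most plainly in 2 patterns.

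In DHO 1 and DHO 5, Defa21 was all but absent. The enteric alpha-defensin gene Defa21 was read 10190, 17478, 28383, 31477 and 5682 times in WT and 889, 4495, 10935, 8761 and 11001 times in HO, against 0, 8317, 17931, 21007 and 1 times in DHO. Counts of Defa38, whose RefSeq synonyms name it a cryptdin-related sequence, were 7 in DHO 1 and 112 in DHO 5, and 1569 or more in the other 13 libraries. Defa22 had 59 and 407 reads there against 804 or more elsewhere. Defa20, named for this pattern after its values were seen, had 0 and 4 reads against 38 or more elsewhere. Both libraries still held transcripts of other members. Defa24 was at 959 FPKM in DHO 1 and 3610 FPKM in DHO 5, and Lyz1 at 695 and 2043 FPKM. In DHO 1 both levels lay below the lowest WT library, at 1551 FPKM for Defa24 and 837 FPKM for Lyz1. The summed defensins of DHO 1, 1519 FPKM, were also below the lowest WT sum, 3608 FPKM. Defa24 made up 63.2% and 66.0% of the defensin FPKM, a share that also rises when other copies are missing.

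Defa27 followed a different set of libraries. It had 1535, 1596, 2780, 2558 and 781 reads in WT, 1406 in HO 3, and 1594, 1252 and 2398 in DHO 1, DHO 2 and DHO 5. In HO 1, HO 2, HO 4 and HO 5 it had 0 reads, and in DHO 3 and DHO 4 it had 1 read each. A count of 0 allows up to 3 reads, and floors of this kind cover counting error only, since the reads carry no molecular identifiers. Defa35 was low in those 6 libraries, with 16, 32, 88 and 104 reads in HO 1, HO 2, HO 4 and HO 5 and 293 and 375 in DHO 3 and DHO 4, against 1636 or more in the other 9. DHO 3 and DHO 4 nonetheless held summed defensins at 8340 and 11519 FPKM, within the WT range. The falls of Defa27 and Defa35 in HO against WT come from HO 1, HO 2, HO 4 and HO 5. The same libraries enter the rise of Defa35 in DHO against HO. The pattern also takes in DHO 3 and DHO 4 and no WT library, and what sets it was not tested.

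**Figure D3:**
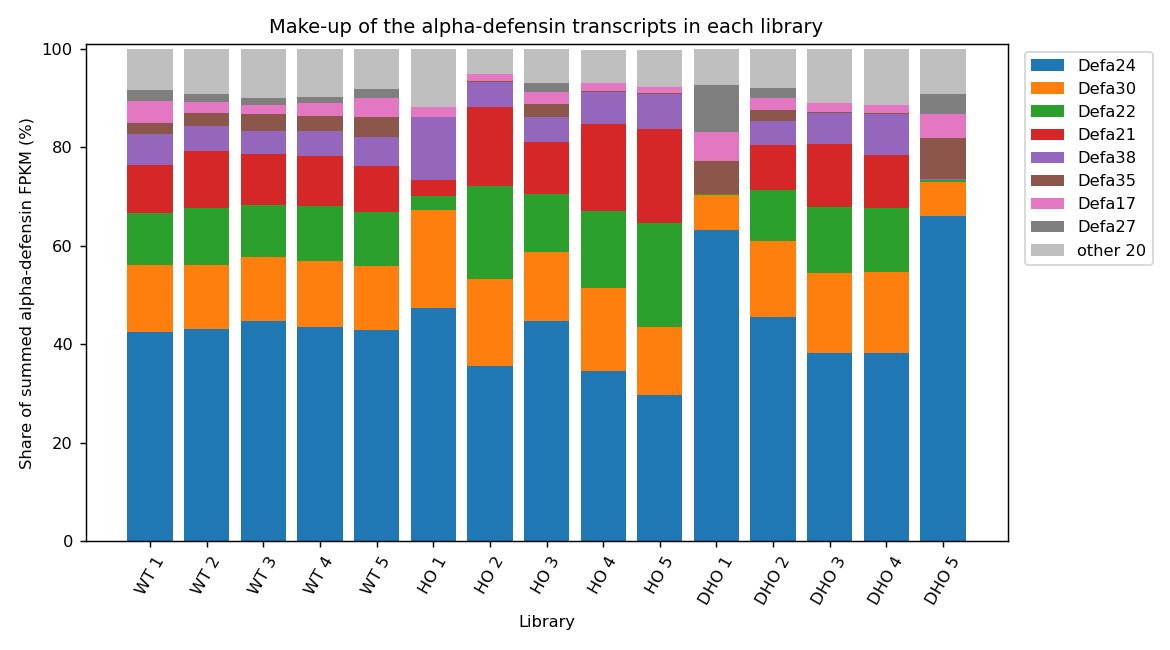
Share of the summed alpha-defensin FPKM taken by 8 genes and by the other 20 together, in each of the 15 libraries. The 5 largest shares are nearly alike across the WT bars, Defa21, Defa22 and Defa38 take at most 0.455% each in DHO 1 and DHO 5, and Defa27 takes at most 0.00106% in HO 1, HO 2, HO 4, HO 5, DHO 3 and DHO 4.

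Set against Lyz1 in the same library, the members separated in the same way. Defa24 stood at 168% to 197% of the Lyz1 FPKM in WT, at 212% to 369% in HO and at 138% to 220% in DHO. Of the 17 alpha-defensins with at least 10 FPKM in every WT library, the ones under 10% of their lowest WT ratio were Defa27 and Defa35 in HO 1 and HO 2. Defa27 alone was under it in HO 4, HO 5, DHO 3 and DHO 4, Defa20, Defa21, Defa22 and Defa38 in DHO 1 and DHO 5, and no gene in HO 3 and DHO 2. In HO 5, by contrast, Defa21 was at 195% of Lyz1 against 38.8% to 46.3% in WT, and Defa22 at 217% against 41.6% to 49.7%. Relative to lysozyme, 12 of the 17 genes were above their WT range in that library and 3 below it.

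**Figure D4:**
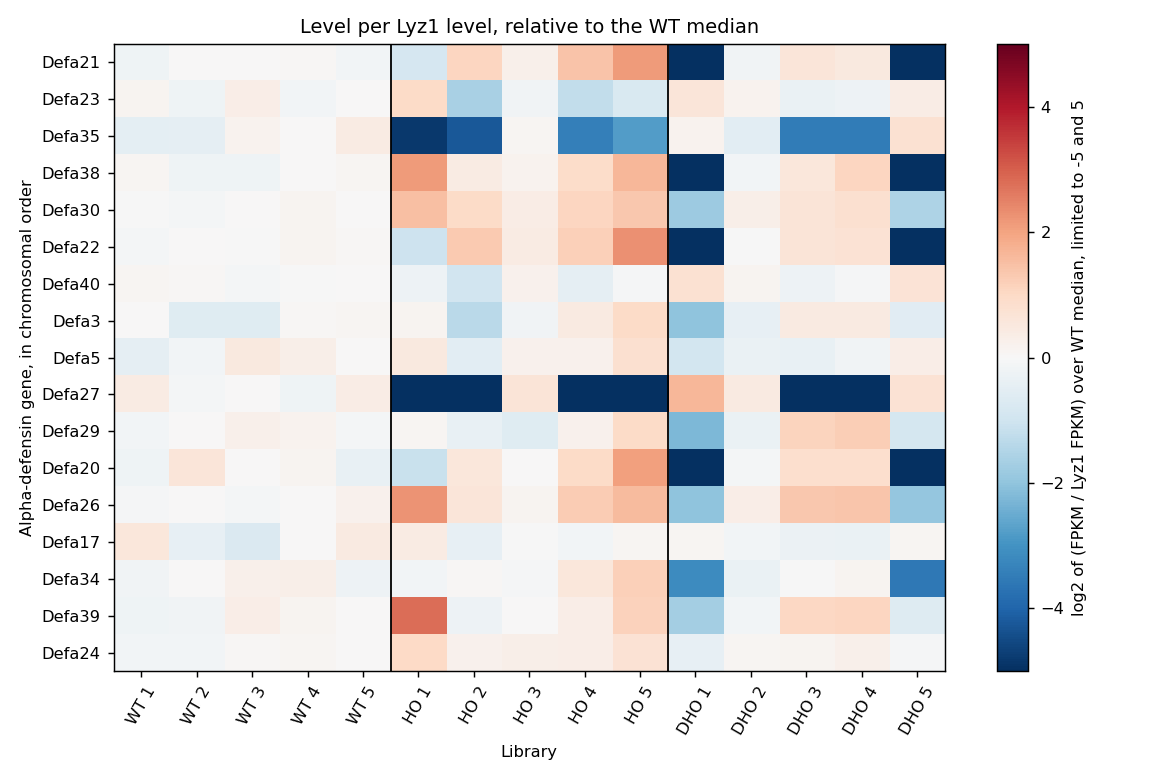
Log2 of the FPKM of 17 alpha-defensins per FPKM of Lyz1, relative to the WT median and limited to -5 and 5, with genes in chromosomal order and libraries in columns. Defa20, Defa21, Defa22 and Defa38 are darkest in DHO 1 and DHO 5, and Defa27 in HO 1, HO 2, HO 4, HO 5, DHO 3 and DHO 4.

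Genes with the pattern of Defa21 were looked for in the whole table by a fixed rule: at least 30 reads in each of the other 13 libraries, and no more in DHO 1 and DHO 5 than 20% of the lowest of those 13, in FPKM. Of 11715 genes with enough reads, 3 met it, Defa21, Defa38 and Defa20, and all are alpha-defensins. Defa22 did not meet it, at 24.9 FPKM in DHO 5 against 48.0 FPKM in HO 1. Defa2, Defa32, Defa33, Defa42 and Defa43, also nearly absent from DHO 1 and DHO 5, had too few reads elsewhere to enter this count. For Defa2 and Defa32 the library with too few was HO 1, with 0 reads of each. HO 1 was also low for Defa21 and Defa22, at 3.15% and 2.85% of its defensin FPKM against 9.5% or more in WT. By the same rule for the 6 libraries in which Defa27 had at most 1 read, 1 of 12279 genes met it, Defa27 itself. Defa35 narrowly missed it, at 23.2 FPKM in DHO 4 against 103 FPKM in DHO 1, its lowest level outside those 6. These libraries were picked by the values of these genes, so the counts describe the pattern and carry no test. The libraries low for Defa27 include HO 1, DHO 3 and DHO 4, which hold proximal transcripts, and HO 2 and HO 4, which hold B cell transcripts, while HO 5 stands apart in neither. DHO 1 holds B cell transcripts (20.5 FPKM) and DHO 5 does not (0.832 FPKM). The part of library origin in the defensin patterns was not tested, and the labels give no strain.

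Genes that direct or accompany the Paneth cell fate were counted beside the granule genes. In HO against WT, 9 of the 12 fate genes were called lower and 2 higher, beside 42.9% and 12.4% of all genes, with a median change of -0.70 against -0.25 over all genes. Gfi1, a repressor needed for Paneth and goblet cells, fell from 1.60 ± 0.411 to 0.607 ± 0.115 FPKM (SD, n = 5), a log2 change of -0.68 (SE 0.11, adjusted p = 0.000115). Bhlha15, which encodes a factor of secretory cell maturation, changed by -1.13, the Wnt receptor gene Fzd5 by -0.72 and Ephb3, which encodes the receptor that holds Paneth cells at the crypt base, by -0.82. The 2 that rose were Tcf7l2, which encodes a TCF factor (0.93, adjusted p = 0.0054), and Xbp1 (0.33, adjusted p = 0.0293). In DHO against HO, 7 of the 12 rose and 2 fell, beside 42.8% and 13.4% of all genes, and the median was 0.50 against 0.25. Fzd5 rose by 0.76 and Ephb3 by 0.61 there, while Bhlha15 had 0.36 (adjusted p = 0.143). Tcf7l2 (-0.76) and Xbp1 (-0.45) were the 2 that fell. Spdef, a goblet and Paneth cell factor gene, was called in neither comparison (-0.40 and 0.07).

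Not every transcript tied to Paneth cells followed. Of 9 other secretory and surface genes tested, 2 were lower in HO, Clps (-2.08), which encodes colipase, and Habp2 (-1.42), which encodes a secreted protease. The zinc transporter gene Slc30a2 was higher, at 28.9 ± 8.23 FPKM against 13.7 ± 1.79 (change 0.99, adjusted p = 9.69e-05). The lectin gene Reg3b, which enterocytes also express, was not called in HO (0.47, adjusted p = 0.0595) and had a change of -1.28 in DHO against HO, where its relative Reg3g had one of -1.35, and both were called. Pnliprp2 (0.60) and Nupr1 (0.35) were not called in HO. In DHO against HO, 2 genes of this list rose and 3 fell.

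Among 10 genes of granule packaging, autophagy and protein folding, 5 fell in HO and 1 rose, with a median of -0.27, close to that of all genes. Agr2, a disulfide isomerase gene of secretory cells, fell from 880 ± 208 to 441 ± 205 FPKM (change -1.08, adjusted p = 0.0019) and rose in DHO against HO by 1.08. The ER stress sensor gene Ern2 changed by -0.56 in HO. The autophagy gene Atg5 changed by -0.51 and 0.53, and the kinase gene Ripk2 by 0.50 and -0.39. Atg16l1 (-0.23) and Becn1 (0.08) were not called in HO.

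Of 4 tested genes for signals that Paneth cells and their neighbours send to stem cells, the Notch ligand genes Dll1 (1.03) and Dll4 (0.77) rose in HO, and Tgfa (-0.07) and Bst1 (1.61) were not called. Wnt3, the Wnt ligand of mouse Paneth cells, was too low to be tested, with a WT mean of 0.752 ± 0.424 FPKM, an HO mean of 0.132 ± 0.0591 and a DHO mean of 0.579 ± 0.242. The neighbouring stem cells had 4 of 7 markers lower in HO, beside 42.9% of all genes: Olfm4 (-5.24), Cdca7 (-1.91), Ascl2 (-1.14) and Lgr5 (-0.76). Smoc2 (0.31), Axin2 (-0.47) and Rnf43 (-0.38) were not called. In DHO against HO 4 were higher, beside 42.8% of all genes. Goblet cell markers, from the other secretory lineage, were mixed in HO: Spink4 (-1.86) and Retnlb (-1.84) fell, Zg16 (0.69) rose, and Muc2 (0.22) and Fcgbp (0.21) were not called. Relatives of the members were mixed as well, with Ang lower in HO (-0.79), Mmp10 higher (1.76) and Lyz2, the lysozyme gene of myeloid cells, not called (0.44, adjusted p = 0.478). No gene of these lists was called in DHO against WT.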

How the data were processed

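Whole ileum RNA from 15 mice was sequenced, 5 libraries in each of 3 groups taken from the genotype labels. The tools fastp, HISAT2 and HTSeq and the genome build mm10 are named, per the submitters' processing notes; versions, settings and annotation are not given in the sources used here. The deposited table holds 1 value per gene and library in FPKM, a unit read from the values, since within a gene each is a whole multiple of a step. Whole reads, within 0.02 of a read, were recovered for 100% of 24836 expressed genes, and this gave the depths (38724618 to 40589889).

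A gene was tested if 5 or more libraries held 1 FPKM or more of it (11332 genes), which left 32 of 34 members. Changes are differences of mean log2(FPKM + 1) from limma-trend with robust moderation (limma 3.58.1, R 4.3.3), in 1 fit over 15 libraries, two-sided, with Benjamini-Hochberg adjustment; the added 1 FPKM understates changes of low genes. A gene that passed the filter through 1 group can be one that differs. The labels' protocols describe TRIzol extraction and a VAHTS Universal V6 kit. The tests were checked on simulated data with few changed genes and no shift of all genes, unlike the data here.

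Members, lists and alternatives were chosen with earlier results of these data known. By rule, members with a group mean of at least 100 FPKM and the 6 named singly are described singly, the others by range and count, and from each list up to 4 called genes with the smallest p and up to 2 not called. Genes outside it were named after their values were seen. Alternatives were other pseudocounts, filters, scalings and libraries left out, and limma-voom on recovered reads. Positions and promoter windows are from RefSeq (all 34 members matched for position, 22 for a window), shared stretches from GENCODE transcript models. Of 16 older defensin names listed, 1 is in the table, AY761185, at 0.0527 FPKM or below.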

Additional observations from a re-analysis of the deposited data

Results flagged for a closer look

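In 105 sets of 5 libraries examined, 12 had 1 library far from the other 4, with a gap above 0.71 of the range. About 1 in 20 such sets would be flagged by chance if values were normally distributed, and the sets are not independent. The values used were FPKM without a log, which span several-fold within groups, and every flag fell on the highest library. The rate expected by chance is thus not known here. HO 3 was the highest HO library in 10 of the 12. It held Lyz1 at 1218 FPKM (next highest HO library 444), Itln1 at 344 (136), Mmp7 at 93.5 (33.8), Mptx2 at 70.6 (19.7) and Ang4 at 58.5 FPKM (13.4). Among alpha-defensins it held Defa24 at 2764 FPKM (next 1041), Defa35 at 171 (6.53), Defa17 at 143 (48.3), Defa27 at 123 (listed at 0) and Defa40 at 46.0 FPKM (10.8). HO 3 held B cell transcripts at 0.755 FPKM, summed proximal markers at 11.7 FPKM and smooth muscle markers at 1280 FPKM. In DHO, Defa35 was at 459.5 FPKM in DHO 5 against 113 in the next library, and Defa32 at 57.5 FPKM in DHO 4 against 11.6; every 50-base stretch of Defa32 also occurs in another gene of the cluster.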

How the results depend on the processing

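No paired analysis was possible because the labels number the samples from 1 to 15 and give the groups no shared replicate numbers. Members called in HO against WT numbered 15 to 27 under the 27 alternatives, all lower (17 to 25 when 1 library was left out), and in DHO against WT 0 under each. In DHO against HO, 7 to 16 were called when 1 library was left out, the highest without DHO 1, and 20 without DHO 1 and DHO 5, chosen after seeing the data. There Defa20 (1.83), Defa21 (1.44), Defa22 (1.56) and Defa38 (1.37) changed sign. Without HO 2, HO 4 and DHO 1, Defa20 (0.49) and Defa22 (0.40) did too. With 1 library left out, Defa20 ranged from -1.10 to 0.49, Defa21 from -3.55 to -0.98, Defa22 from -1.84 to 0.25, Defa30 from just below 0 (without DHO 4) to 1.03 and Defa38 from -2.52 to -0.16. Without HO 1, DHO 3 and DHO 4, Defa30 was at -0.63. The causes of these shifts were not tested. The median summed defensin FPKM of each group moved by less than the spread between replicates without HO 1, DHO 3 and DHO 4. With 5 libraries a group and values that span several-fold within WT, only large differences could be called.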
